A study of Mus musculus with 10 samples.

Results

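The 10 genes described here encode subunits of voltage-gated calcium channels. They were chosen by name and were 10 of the 57185 genes with a value in the count table. They comprise 4 pore-forming α1 genes (Cacna1c, Cacna1d, Cacna1g and Cacna1h), 3 β genes (Cacnb1, Cacnb2 and Cacnb3) and 3 α2δ genes (Cacna2d1, Cacna2d2 and Cacna2d3). Transcripts were measured by bulk RNA sequencing of ventricle, 1 library per mouse. The study names left ventricle in its results and the apical part of the ventricle in its methods. All mice were male, lacked muscle LIM protein (MLPKO), a defect that produces dilated cardiomyopathy, and carried floxed alleles of Rrad, the gene for the small G-protein RAD. All received a single intraperitoneal tamoxifen dose of 100 mg/kg at 10 weeks and were labelled as 16 weeks old and 1 month past tamoxifen. In 5 cRADΔ/Δ-MLPKO mice, the cardiomyocyte-driven, tamoxifen-inducible MYH6-MerCreMer recombinase deleted Rrad, whereas the 5 MLPKO controls carried no recombinase, so that loss of RAD and presence of the transgene cannot be told apart. The comparison asked how RAD deletion in a failing heart altered gene expression. Here it was read for the channel that RAD inhibits.

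In working myocardium, the L-type channel lets calcium enter during the action potential and so triggers contraction. Its α1 subunit forms the pore, an intracellular β subunit supports surface expression and gating, and an α2δ subunit, anchored at the outer face of the membrane, aids trafficking. RAD belongs to the RGK family of G-proteins, which bind β subunits and restrain the L-type current. T-type channels open at more negative voltages, are abundant in embryonic and pacemaker cells, and are known to reappear in the diseased ventricle.

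Between 33457406 and 49965101 reads were assigned to genes per mouse, with a median of 43841079 in MLPKO and 43635203 in cRADΔ/Δ-MLPKO. On the first principal component, MLPKO mouse 2 stood apart from the other mice. Without it, the log2 fold changes of the 3 genes whose genotypes did not overlap were −0.69 for Cacna2d1 (edgeR adjusted p = 0.0442), −0.48 for Cacnb1 (0.0509) and 0.61 for Cacna2d2 (0.0881). Summed over 8 cardiomyocyte markers, expression was 57073 to 68678 CPM (counts scaled to library size) in MLPKO and 43584 to 56511 in cRADΔ/Δ-MLPKO, with no overlap. Of the 8, Tnnt2 was the marker called lower by edgeR, which called 1.80% of all genes lower. Endothelial markers summed to 760 to 886 CPM and 905 to 1032 CPM, again with no overlap. Fewer cells of a type and less RNA per cell cannot be told apart in such tissue. Read counts over all exons of Rrad overlapped (140 to 282 CPM in MLPKO and 135 to 202 CPM in cRADΔ/Δ-MLPKO, edgeR adjusted p = 0.290). These counts pool all cell types and all exons, and which exons were floxed was not given in the sources used here, so they do not check the genotype labels.

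Promoter windows of 300 bases, 250 before and 50 after a transcription start, were available from RefSeq for 8 of the 10 genes (14 starts). For the 3 genes whose values did not overlap between the genotypes, the window of the most upstream listed start is printed 5′ to 3′ on the strand of the gene. They were placed on GRCm39 by exact match, at chr5:16139439-16139738 (plus strand), chr11:97913404-97913703 (minus strand) and chr9:107276829-107277128 (plus strand). Capitals mark the GC box GGGCGG on either strand, including overlapping copies.
Cacna2d1: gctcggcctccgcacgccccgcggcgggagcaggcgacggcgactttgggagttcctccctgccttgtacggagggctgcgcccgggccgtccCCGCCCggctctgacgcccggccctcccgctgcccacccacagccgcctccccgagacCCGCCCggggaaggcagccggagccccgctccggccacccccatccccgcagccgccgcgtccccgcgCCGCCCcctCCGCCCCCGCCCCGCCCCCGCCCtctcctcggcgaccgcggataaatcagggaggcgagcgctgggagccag
Cacnb1: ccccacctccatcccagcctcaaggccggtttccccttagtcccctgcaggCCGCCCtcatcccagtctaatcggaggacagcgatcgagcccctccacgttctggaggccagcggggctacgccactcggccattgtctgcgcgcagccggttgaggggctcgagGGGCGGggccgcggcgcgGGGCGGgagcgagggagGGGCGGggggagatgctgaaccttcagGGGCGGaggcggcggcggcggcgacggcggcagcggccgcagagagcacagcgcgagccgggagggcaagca
Cacna2d2: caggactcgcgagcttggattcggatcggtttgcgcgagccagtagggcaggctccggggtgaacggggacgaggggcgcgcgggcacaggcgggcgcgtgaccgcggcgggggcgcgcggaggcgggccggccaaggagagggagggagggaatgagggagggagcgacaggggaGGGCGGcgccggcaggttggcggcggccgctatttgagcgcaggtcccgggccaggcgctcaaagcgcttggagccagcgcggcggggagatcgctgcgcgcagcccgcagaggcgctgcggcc
All 3 printed windows were rich in G and C, at 80.0%, 73.7% and 75.7%, against a median of 52.7% over 32851 mouse promoter windows of this length. The Cacna2d1 window held 7 GC boxes, 5 of them crowded just before the start, while the printed window of Cacnb1 held 5 and that of Cacna2d2 held 1. Cacnb1 has a second, downstream start (chr11:97909149-97909448), whose window was not printed, held 0 GC boxes and was 59.3% G and C. The GC box was in 9 of 14 windows, against 35.7% of all windows, and each of the 8 genes had it in at least 1 window. Its bases are all G and C, and windows of like base content were not compared. The sequences AGATAA, TGACGTCA and CACGTG, the CArG box and the MEF2 box were in none of the 14 windows, and TATAAA was only in an upstream window of Cacna1d. Over all windows they occurred in 11.2%, 1.79%, 7.15%, 1.63%, 0.557% and 13.6%, respectively. GGGCGG and CACGTG were searched after the others had given almost no match, and a match is a description of the sequence alone.

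All 10 genes passed the count filter. In cRADΔ/Δ-MLPKO relative to MLPKO, 2 were called lower at an adjusted p under 0.05 in the edgeR quasi-likelihood test with Benjamini-Hochberg adjustment, namely Cacna2d1 and Cacnb1, and 0 were called higher. Across the 13454 genes tested, 2.74% were called, 1.80% lower and 0.944% higher. Of the 10, 9 had a log2 fold change below 0, against 47.9% of all genes, and their median log2 fold change was −0.27, against 0.01 over all genes. The genotypes did not overlap for 3 of the 10 genes, Cacna2d1, Cacnb1 and Cacna2d2, against 6.62% of all genes (3.98% lower and 2.64% higher in the double knockout). DESeq2 called 5 of the 10 (9.65% of all genes, 5.84% lower and 3.81% higher), adding Cacna1c and Cacnb2 as lower and Cacna2d2 as higher. limma-voom called Cacna2d1 and Cacnb1 (2.53% of all genes). The same 5 genes as with DESeq2 had an unadjusted edgeR p under 0.05, as did 21.5% of all genes. In the exact permutation test on log2(CPM + 1), which is two-sided and not adjusted, p was 0.00794 for those 3 non-overlapping genes, the smallest that 5 against 5 mice allow, 0.0159 for Cacnb2, 0.0397 for Cacna1c and 0.206 or more for the other 5. Any gene without overlap gets 0.00794 in this test, so that p only restates the non-overlap.

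**Figure D1:**
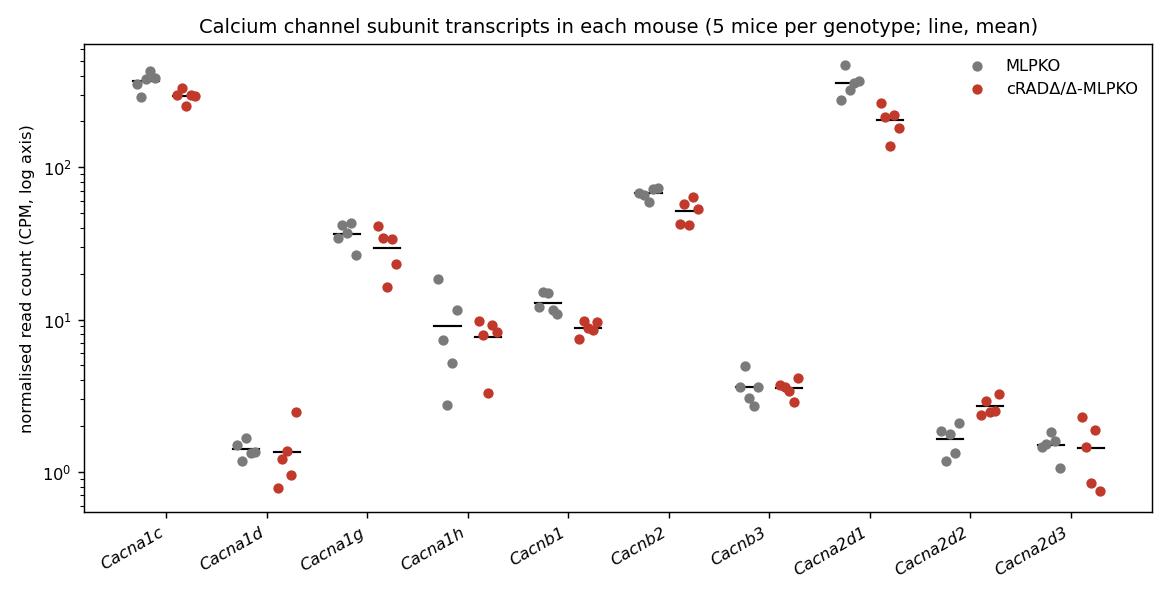
Normalised read count in CPM (log axis) of the 10 subunit genes in each of 5 MLPKO mice (grey) and 5 cRADΔ/Δ-MLPKO mice (red), with the group mean as a line. The red points of Cacna2d1 and Cacnb1 lie below all grey points, those of Cacna2d2 lie above them, and the genotypes overlap for the other 7 genes.

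The principal pore gene, Cacna1c (ENSMUSG00000051331), encodes Cav1.2, the L-type channel of ventricular myocytes. It lies on the minus strand of chromosome 6 (GRCm39, 118564201 to 119173851). It was measured at 350, 291, 378, 426 and 387 CPM in MLPKO mice 1 to 5 and at 296, 330, 251, 299 and 295 CPM in cRADΔ/Δ-MLPKO mice 1 to 5. Only MLPKO mouse 2 lay within the range of the double knockout, the other 4 MLPKO mice being above it. The mean was 366 ± 50.2 CPM (SD, n = 5) in MLPKO and 294 ± 28.3 CPM (SD, n = 5) in cRADΔ/Δ-MLPKO. The log2 fold change was −0.32 (SE 0.10, 95% interval −0.54 to −0.09), with an edgeR adjusted p of 0.102 and a DESeq2 adjusted p of 0.0391. The edgeR adjusted p was 0.0350 without MLPKO mouse 2 and above 0.05 on leaving out any other mouse.

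Cacna1d (ENSMUSG00000015968), on chromosome 14 (29761896 to 30213412), encodes Cav1.3, an L-type pore best known in pacemaker and atrial cells. Its level was low, with 1.50, 1.17, 1.66, 1.33 and 1.35 CPM in MLPKO and 0.778, 1.22, 1.37, 0.958 and 2.47 CPM in cRADΔ/Δ-MLPKO. The highest and the lowest values were both in double knockouts, so the ranges nested. Its lowest value rested on 26 reads (exact Poisson 95% interval 17.0 to 38.1, counting error only). The log2 fold change was −0.05 (SE 0.29, 95% interval −0.67 to 0.58, edgeR adjusted p = 0.948). Over 9.72% of its exon bases it shares sequence with Chdh on the opposite strand, and the strand setting of the counting was not given in the sources used here.

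The T-type pore genes overlapped between the genotypes and were not called. Cacna1g (ENSMUSG00000020866, Cav3.1, chromosome 11, 94299217 to 94365230) was at 34.3, 41.9, 37.1, 43.3 and 26.3 CPM in MLPKO and at 41.0, 34.2, 16.4, 33.6 and 23.0 CPM in cRADΔ/Δ-MLPKO. Double-knockout mouse 3 had the lowest value and mouse 1 of the same genotype exceeded 3 of the 5 controls. Its log2 fold change was −0.30 (SE 0.22, 95% interval −0.78 to 0.17, edgeR adjusted p = 0.456). Cacna1h (ENSMUSG00000024112, Cav3.2, chromosome 17, 25593259 to 25652764) was at 18.3, 7.38, 2.74, 5.20 and 11.6 CPM in MLPKO and at 9.81, 7.86, 3.28, 9.24 and 8.25 CPM in cRADΔ/Δ-MLPKO. Its coefficient of variation in MLPKO, 67.7%, was the highest of the 10 genes in either genotype. With a log2 fold change of −0.23 (SE 0.44, 95% interval −1.18 to 0.72, edgeR adjusted p = 0.806), the interval of Cacna1h was the widest of the 10 genes.

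Among the β genes, Cacnb2 (ENSMUSG00000057914, chromosome 2, 14607899 to 14994127) encodes the main cardiac β subunit, to which RAD binds. It was measured at 67.5, 65.9, 59.3, 71.7 and 73.0 CPM in MLPKO and at 42.2, 57.1, 41.6, 63.6 and 53.0 CPM in cRADΔ/Δ-MLPKO. All double knockouts except mouse 4 lay below every control. The log2 fold change was −0.39 (SE 0.12, 95% interval −0.64 to −0.14), with an edgeR adjusted p of 0.0841 and a DESeq2 adjusted p of 0.0255.

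Cacnb1 (ENSMUSG00000020882, chromosome 11, 97892204 to 97913860) encodes the β subunit that partners the skeletal muscle channel, and it is also found in heart. It was at 12.1, 15.1, 14.9, 11.5 and 10.8 CPM in MLPKO and at 7.45, 9.80, 8.77, 8.55 and 9.66 CPM in cRADΔ/Δ-MLPKO. Every double knockout was below every control. The mean went from 12.9 ± 1.98 CPM (SD, n = 5) to 8.84 ± 0.950 CPM (SD, n = 5), a log2 fold change of −0.54 (SE 0.12, 95% interval −0.79 to −0.29, edgeR adjusted p = 0.0357). This call was kept in only 1 of 10 fits that left out a mouse, the fit without MLPKO mouse 4, and the log2 fold change in the 10 fits was −0.60 to −0.47 with an adjusted p of 0.0264 to 0.0858. Of 10 skeletal muscle markers, Myh4 and Myog had 0 reads in every mouse and Myh1 and Tnnc2 had 3 or fewer. Another 3 passed the count filter, among them Mylpf, the highest per length, with 14 to 37 reads. All 10 together amounted to 1.16 to 2.99 CPM in MLPKO and 1.38 to 2.27 CPM in cRADΔ/Δ-MLPKO. The part of skeletal muscle cells in the Cacnb1 difference was not tested.

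Cacnb3 (ENSMUSG00000003352, chromosome 15, 98528721 to 98542417), a β gene better known from neurons and smooth muscle, was at 3.58, 4.94, 3.04, 2.72 and 3.62 CPM in MLPKO and at 3.71, 3.61, 3.39, 2.89 and 4.14 CPM in cRADΔ/Δ-MLPKO. All 5 double knockouts lay inside the control range. The log2 fold change was −0.01 (SE 0.17, 95% interval −0.38 to 0.36, edgeR adjusted p = 0.981).

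With all 10 mice, Cacna2d1 (ENSMUSG00000040118, chromosome 5, 16139372 to 16579509) had the largest fitted log2 fold change in size among the 10 genes, but that of Cacna2d2 was larger without MLPKO mouse 5 (0.81 against −0.80) and without double-knockout mouse 3 (0.74 against −0.69). It encodes α2δ-1, the main cardiac α2δ subunit and the target of gabapentin. It was measured at 275, 467, 320, 355 and 367 CPM in MLPKO and at 264, 214, 137, 221 and 182 CPM in cRADΔ/Δ-MLPKO. All double knockouts were below all controls, with MLPKO mouse 1 and double-knockout mouse 1 nearly touching. The mean was 357 ± 71.1 CPM (SD, n = 5) in MLPKO and 204 ± 47.4 CPM (SD, n = 5) in cRADΔ/Δ-MLPKO, and the log2 fold change was −0.81 (SE 0.17, 95% interval −1.18 to −0.43, edgeR adjusted p = 0.0334). In fits that left out a mouse, the log2 fold change was −0.92 to −0.69. The call was kept in 5 of 10 such fits and lost without MLPKO mouse 5 (adjusted p = 0.0807) or without double-knockout mouse 2 (0.0646), 3 (0.0589), 4 (0.0688) or 5 (0.0934).

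Cacna2d2 (ENSMUSG00000010066, chromosome 9, 107276811 to 107406543), which encodes α2δ-2, a subunit best known from the cerebellum, differed in the opposite direction. It was at 1.85, 1.17, 1.78, 1.33 and 2.10 CPM in MLPKO and at 2.36, 2.92, 2.49, 2.49 and 3.23 CPM in cRADΔ/Δ-MLPKO. Every double knockout exceeded every control, although the values rested on 37 to 95 reads in MLPKO and 79 to 143 reads in cRADΔ/Δ-MLPKO. The log2 fold change was 0.71 (SE 0.19, 95% interval 0.30 to 1.11), with an edgeR adjusted p of 0.0608, which misses the threshold, and a DESeq2 adjusted p of 0.00884. It was called by edgeR in 0 of 10 fits that left out a mouse.

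Cacna2d3 (ENSMUSG00000021991, chromosome 14, 28626892 to 29444600), a mainly neuronal α2δ gene, was at 1.46, 1.52, 1.82, 1.60 and 1.06 CPM in MLPKO and at 2.27, 1.46, 0.847, 1.87 and 0.746 CPM in cRADΔ/Δ-MLPKO. The double knockouts reached both above and below the controls. The log2 fold change was −0.05 (SE 0.30, 95% interval −0.72 to 0.61, edgeR adjusted p = 0.942). It shares 81 exon bases with the opposite-strand gene Lrtm1, which had 163050 reads over all mice against 602 for Cacna2d3, so its level is uncertain.

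**Figure D2:**
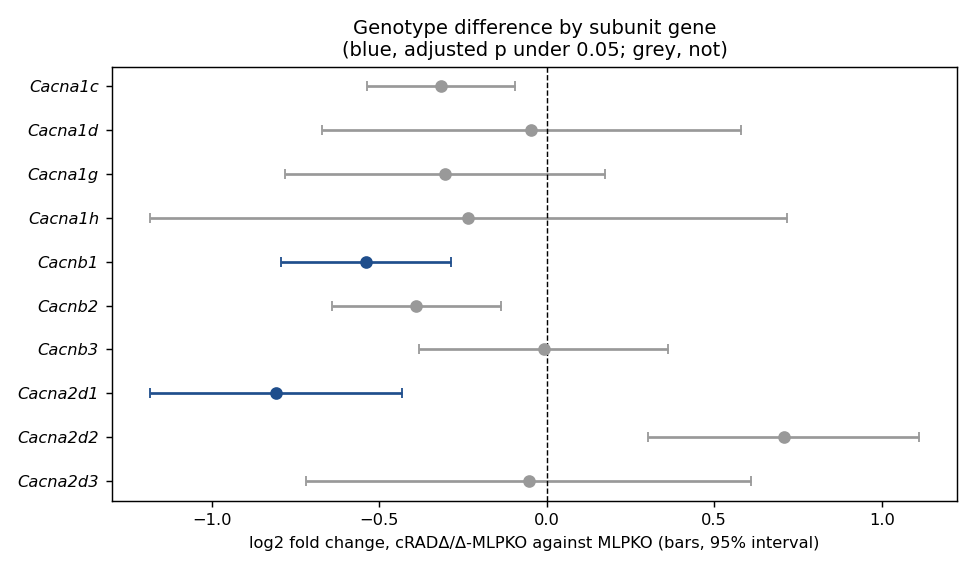
Log2 fold change of each subunit gene in cRADΔ/Δ-MLPKO against MLPKO (x axis), with its 95% interval from the edgeR fit of 10 mice. The intervals of Cacna1c, Cacnb1, Cacnb2 and Cacna2d1 lie below 0 and that of Cacna2d2 above 0, but only Cacnb1 and Cacna2d1 (blue) had an adjusted p under 0.05.

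**Figure D3:**
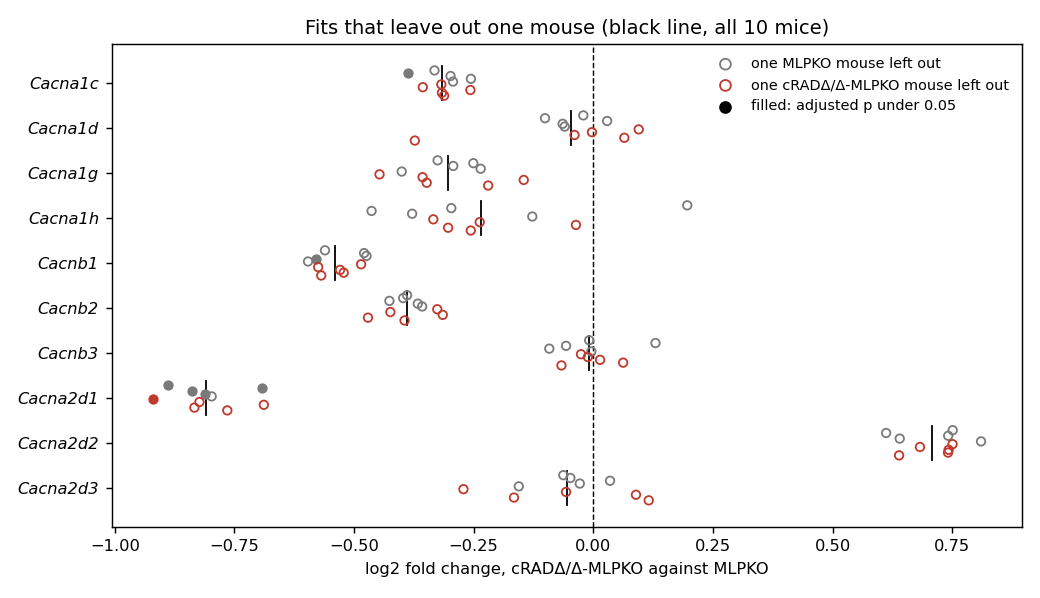
Log2 fold change of each subunit gene (x axis) in 10 fits that each leave out a mouse, grey for MLPKO and red for cRADΔ/Δ-MLPKO, filled where the adjusted p was under 0.05, with the fit of all 10 mice as a black line. Points of Cacna2d1 stay between −0.92 and −0.69 with 5 of 10 filled, and those of Cacnb1 between −0.60 and −0.47 with 1 of 10 filled.

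To compare levels between genes, CPM were divided by the exon length of each gene in kilobases. In MLPKO, Cacna1c (16.4 ± 2.25 CPM per kb, SD, n = 5) and Cacna2d1 (16.1 ± 3.22) had the highest levels per length and overlapped. Next came Cacnb2 (4.61), Cacna1g (3.54) and Cacnb1 (2.24), of which each neighbouring pair overlapped, then Cacna1h (0.826) and Cacnb3 (0.710), which also overlapped. The lowest levels per length were those of Cacna2d2 (0.207), Cacna2d3 (0.147) and Cacna1d (0.0923), again with neighbours that overlapped. The gaps that exceeded the ranges were those below Cacna2d1, below Cacnb1 and below Cacnb3. In cRADΔ/Δ-MLPKO, the order was unchanged except that Cacnb3 (0.703) and Cacna1h (0.702) changed places, and levels per length of Cacna1c (13.2) and Cacna2d1 (9.22) overlapped. Divided by the longest annotated transcript instead, Cacna2d1 (39.6 CPM per kb in MLPKO) came before Cacna1c (27.8), so the order of these 2 genes depends on the length used. With that length in MLPKO, Cacna2d3 (0.333) also came before Cacna2d2 (0.283), with overlap, and Cacnb2 no longer overlapped Cacna1g.

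Summed by subunit class, the level per length of the α1 genes was 17.8 to 23.8 CPM per kb in MLPKO and 13.2 to 18.9 in cRADΔ/Δ-MLPKO, with overlap. The share of Cacna1c in that sum was 78.4% ± 3.99 and 78.7% ± 4.57 (SD, n = 5 each). Among the α1 genes of this list, the mix of L-type and T-type pore transcripts thus differed by less than its spread. The sum leaves out Cacna1s, another L-type pore gene, with means of 2.64 CPM per kb in MLPKO and 1.93 in cRADΔ/Δ-MLPKO. The β sum was 7.26 to 8.10 CPM per kb in MLPKO and 4.92 to 6.41 in cRADΔ/Δ-MLPKO, with no overlap. Within it, the shares of Cacnb2 (61.0% ± 5.08 and 60.7% ± 4.39), Cacnb1 (29.7% ± 4.42 and 26.9% ± 2.53) and Cacnb3 (9.33% ± 1.81 and 12.4% ± 2.31) each overlapped. The α2δ sum was 12.8 to 21.4 CPM per kb in MLPKO and 6.60 to 12.5 in cRADΔ/Δ-MLPKO, with no overlap. Here the mix differed as well. Cacna2d1 made up 97.1% to 98.6% of it in MLPKO and 94.0% to 95.8% in cRADΔ/Δ-MLPKO, and Cacna2d2 made up 0.689% to 1.81% and 2.38% to 4.74%. The ratio of Cacna2d1 to Cacna1c, a measure of auxiliary to pore transcript, was 0.796 to 1.62 in MLPKO and 0.552 to 0.903 in cRADΔ/Δ-MLPKO, with overlap. These sums, shares and ratios restate the values of the single genes and were not tested. They use the exon union and depend on that length. In MLPKO, the mean of Cacnb2 was 4.61 CPM per kb by exon union and 12.6 by the longest transcript, and that of Cacnb1 was 2.24 and 3.49.

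**Figure D4:**
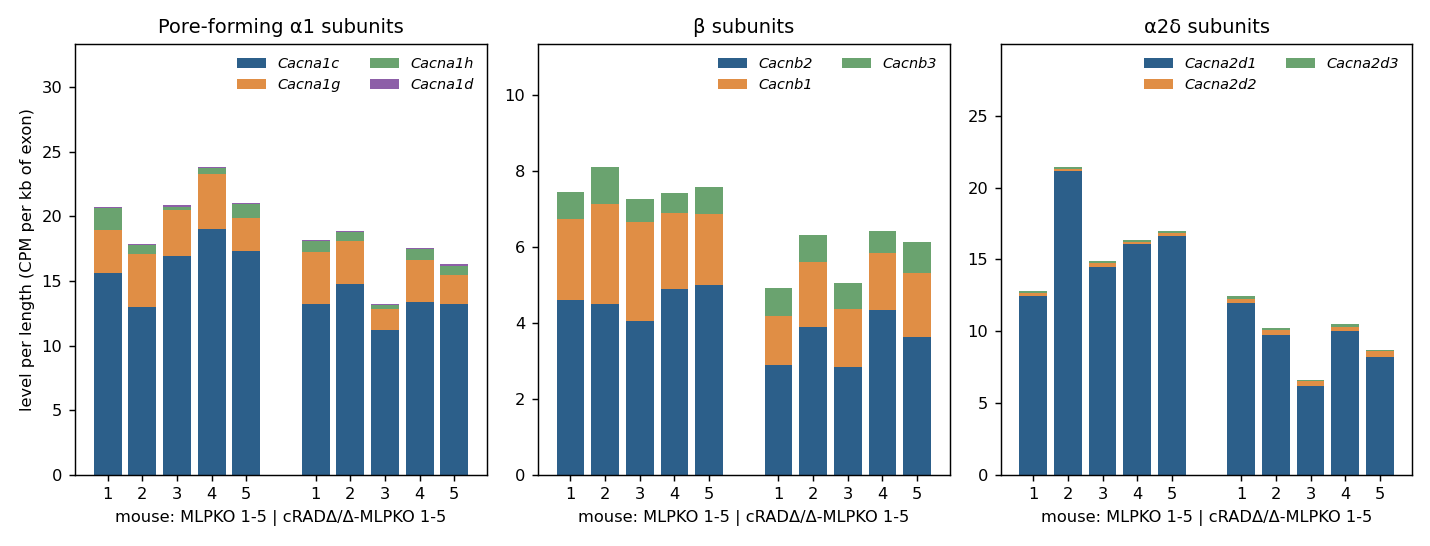
Level per length (CPM per kb of exon, bars stacked from 0) of the α1, β and α2δ genes in each mouse, MLPKO mice 1 to 5 on the left and cRADΔ/Δ-MLPKO mice 1 to 5 on the right of each panel. The β sums stay at 7.26 or more in MLPKO and at 6.41 or less in cRADΔ/Δ-MLPKO, and nearly all of each α2δ bar is Cacna2d1.

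Since cardiomyocyte markers were also lower in the double knockouts, each gene was related to the summed markers of its own mouse, a scale added after the data had been seen. Per 1000 CPM of markers, Cacna2d1 was 5.68 ± 0.962 in MLPKO and 3.95 ± 0.712 CPM in cRADΔ/Δ-MLPKO (SD, n = 5 each), a log2 difference of −0.53 (two-sided exact permutation p = 0.0159), and the groups then overlapped. On the same scale, the log2 difference was −0.24 for Cacnb1 (exact permutation p = 0.127), −0.11 for Cacnb2 (exact p = 0.333) and −0.01 for Cacna1c (exact p = 0.921), each with overlap. Cacna2d2 stayed without overlap, at 0.0176 to 0.0305 in MLPKO and 0.0441 to 0.0649 CPM in cRADΔ/Δ-MLPKO, with a log2 difference of 1.03 (exact permutation p = 0.00794, a value that non-overlap alone fixes). The markers include genes that themselves differed between the genotypes, such as Tnnt2 (log2 fold change −0.57, edgeR adjusted p = 0.0185). DESeq2 called 3 of the 8 lower, against 5.84% of all genes. Myh6 alone had a mean of 36498 CPM in MLPKO, where the sum had a mean of 62758 CPM, so the scale is mostly a ratio to Myh6. Its log2 fold change was −0.29 (edgeR adjusted p = 0.104, DESeq2 adjusted p = 0.0193). Of 8 cardiomyocyte markers, 7 had a log2 fold change below 0, against 47.9% of all genes. Their median was −0.26, close to that of the channel genes.

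Beyond these 10 genes, 16 further subunit genes were listed, of which 4 passed the filter (Cacna1a, Cacna1s, Cacnb4 and Cacng7) and 0 were called by edgeR. The highest level per length among them was that of Cacna1s, the pore gene of the skeletal muscle L-type channel, at 17.2 to 25.8 CPM in MLPKO and 13.3 to 19.9 CPM in cRADΔ/Δ-MLPKO. Its log2 fold change was −0.45 (SE 0.13, edgeR adjusted p = 0.0760), and the genotypes overlapped. The γ genes Cacng2, Cacng3, Cacng5 and Cacng8 had 3 or fewer reads in every mouse, Cacng3 and Cacng8 having 0. Of 23 genes for partners and regulators of the channel, such as calmodulin, protein kinase A, anchoring proteins, adrenoceptors and junctional proteins, 22 passed the filter and 0 were called in either direction by edgeR. Over all genes edgeR called 2.74%, so 0 in lists of 4 and 22 genes does not set them apart. At an unadjusted edgeR p under 0.05 were 1 of the 4 subunit genes and 7 of the 22 partners, against 21.5% of all genes. DESeq2 called 1 of the 4 lower, and 3 of the 22 lower and 1 higher. Over all genes it called 5.84% lower and 3.81% higher. Log2 fold changes were below 0 in 14 of the 22, against 47.9% of all genes. Rrad had a log2 fold change of −0.38 (SE 0.20), and its relative Rem2 had 0 reads in every mouse. Gem, another RGK gene, named after its values had been seen, was at 2.22 to 4.25 CPM in MLPKO and 3.61 to 5.24 CPM in cRADΔ/Δ-MLPKO, a log2 fold change of 0.58 (SE 0.18) with an edgeR adjusted p of 0.0928 and a DESeq2 adjusted p of 0.0261. Jph2, which tethers the sarcoplasmic reticulum to the plasma membrane, had the highest level per length over all mice (112.7 CPM per kb), but in MLPKO its mean (119.8) was below that of Rrad (126.9), and in cRADΔ/Δ-MLPKO above it (105.6 against 97.3). The PKA genes Prkaca and Prkar2a were the 2 of 22 partners without overlap, against 6.62% of all genes (3.98% lower in the double knockout). They are named after their values had been seen. Prkaca was at 226 to 268 CPM in MLPKO and 191 to 217 CPM in cRADΔ/Δ-MLPKO (edgeR adjusted p = 0.0691), and Prkar2a at 144 to 176 CPM and 132 to 140 CPM (edgeR adjusted p = 0.0841).

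Markers of other cells were compared beside these values. Smooth muscle markers summed to 178 to 278 CPM in MLPKO and 236 to 389 CPM in cRADΔ/Δ-MLPKO, macrophage markers to 77.2 to 111 and 94.3 to 171 CPM, and pericyte markers to 790 to 998 and 968 to 1055 CPM, all with overlap. Of 8 macrophage markers, 7 had a log2 fold change above 0 and an unadjusted edgeR p under 0.05, with a list median of 0.54. Of these 8, 0 were called by edgeR and 4 were called higher by DESeq2. Over all genes, 21.5% had an unadjusted edgeR p under 0.05, edgeR called 2.74% and DESeq2 called 3.81% higher. Called higher by edgeR were Acta2 of 6 smooth muscle markers, Rgs5 of 6 pericyte markers, Dpt of 8 fibroblast markers and Tek of 8 endothelial markers. Among all genes, edgeR called 0.944% higher. Other markers of these lists went the other way without passing the test, such as Cnn1 of smooth muscle (log2 fold change −2.17, edgeR adjusted p = 0.103) and Cspg4 of pericytes (−0.74, edgeR adjusted p = 0.151). Both varied widely in MLPKO, with means of 16.1 ± 21.5 CPM for Cnn1 and 60.0 ± 33.6 CPM for Cspg4 (SD, n = 5). Of 8 fibroblast markers, 5 had a log2 fold change below 0, and the list median was −0.018. Fibroblast, atrial, conduction and neural markers overlapped in their sums. The atrial sum was 28.01 CPM in double-knockout mouse 1, against 5.45 to 6.83 CPM in the other double knockouts and 5.28 to 8.08 CPM in MLPKO. Among the double knockouts, that mouse was highest for Cacna1g, Cacna1h, Cacna2d1 and Cacna2d3 and lowest for Cacna1d, Cacnb1 and Cacna2d2. The part of atrial cells in its values was not tested. The pacemaker marker Isl1 and the neuronal marker Snap25 had 0 reads in every mouse. The part of these cells in the differences of Cacna2d1, Cacnb1 and Cacna2d2 was not tested.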

How the data were processed

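RNA from the apical part of the ventricle was poly(A)-selected and sequenced. The authors aligned reads to GRCm39 with STAR after FastQC and deposited raw read counts per gene from featureCounts. Versions, annotation, strand and multi-mapping settings were not given in the sources used here. The table held 60676 rows, of which 3491 were blank and left out. Among counts of 1 to 20, 73.7% to 80.3% were even, against 51.0% to 56.5% of those over 1000, so a low count may stand for fewer fragments than its number. The Poisson interval of Cacna1d took each read as a separate fragment and may therefore be too narrow. Intervals of log2 fold changes came from the edgeR fit and include the spread between mice.

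A gene entered the test if 6 or more of the 10 mice had over 10 counts for it, and names that start with Gm and a digit or end in Rik were removed, leaving 13454. They were tested with edgeR 4.0.16 (TMM, quasi-likelihood) in R 4.3.3, genotype the only term, with Benjamini-Hochberg adjustment over all 13454. DESeq2 1.42.0, the tool of the study's methods, and limma-voom 3.58.1 were alternatives, as were other scalings, filters, a replicate block, glmTreat and fits leaving out each mouse. Exact permutation tests used scipy 1.17.1. On simulated counts with 200 genes changed by 1 log2 unit, edgeR recovered 78.5% with 3.09% false calls, and DESeq2 81.5% with 13.3% false calls. Levels per length used the exon union of GENCODE M39, against the longest transcript. Replicates were separate mice.

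The 10 genes and the other gene lists were chosen with earlier results of these data known. All 10 are named. Genes of other lists are named where called, where at 3 or fewer counts in every mouse, where highest per length, or for Rrad. Cacna1a, Cacnb4, Cacng7, Gem, Prkaca, Prkar2a, Cnn1 and Cspg4 fall outside this rule and were named after their values had been seen. For likeness, the 3 of them with the smallest adjusted p were used.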

Additional observations from a re-analysis of the deposited data

How the results depend on the processing

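Cacna2d1 and Cacnb1 were called under 9 of 10 other settings, all but glmTreat. DESeq2 called 1298 genes and 5 of the 10 subunit genes, and glmTreat against a log2 fold change of 0.5 called 1 gene and 0 of the 10, a stricter hypothesis by construction. Leaving out a mouse gave 47 (without MLPKO mouse 5) to 826 genes (without MLPKO mouse 4), against 369, and 0 to 2 of the 10, with 0 in 5 of 10 fits (without MLPKO mouse 5 and without double-knockout mice 2, 3, 4 and 5). The cause was not tested. The mouse numbers did not pair the samples: 1 of 5 same-numbered pairs correlated above 0.1 (range −0.044 to 0.15) and 2 of 5 mice correlated best with their own number. The replicate block gave 281 genes and the same 2 subunit genes. Genes near 0 changed sign. Cacnb3 was at 0.027 with limma-voom, 0.016 with upper quartile scaling and 0.0070 with the replicate block. Over the fits without a mouse, log2 fold changes were −0.37 to 0.095 for Cacna1d, −0.46 to 0.20 for Cacna1h, −0.092 to 0.13 for Cacnb3 and −0.27 to 0.12 for Cacna2d3. Relative to the cardiomyocyte markers, log2 differences were 0.14 for Cacna1d, 0.25 for Cacna1h and 0.14 for Cacna2d3. Depth limits Cacna1d, Cacna2d2 and Cacna2d3, which rested on 26 to 143 reads per mouse.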

Other observations

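Over the 10 mice, the genes whose log2 CPM followed Cacna2d1 most closely were Hcfc1r1 (Pearson r = 0.967), Nkrf (0.958) and Serinc1 (0.958). For Cacnb1 they were Lnx1 (r = 0.933), Ash2l (0.929) and Fras1 (0.929), and for Cacna2d2 they were the pseudogene Pdcd5-ps (r = 0.937), Coprs (0.930) and Rps19 (0.923). These are the highest of 13454 genes, share the genotype difference and the libraries, and are given as a description.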
